A study of Mus musculus with 24 samples.

Results

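The genes described here are those around the BCR-ABL fusion and the transcription factor STAT5 in the spleens of mice injected with leukemia cells. They are the gene pair whose human counterparts form the fusion (Bcr and Abl1), the STAT5 genes (Stat5a and Stat5b) and 6 genes known as targets of STAT5 (Socs2, Cish, Pim1, Pim2, Myc and Osm). Their rows were taken by gene name from a table of 46078 genes, and all 10 were found and were among the 16557 genes tested. Spleen RNA was sequenced from 24 male C57BL/6J mice, 1 library per mouse, with 6 mice in each of 4 groups. The labels give an age of 20 weeks, which in the paper is the age at injection. The paper places the collection of these spleens at the end of the treatment. All mice had been injected with syngeneic cells of B cell acute lymphoblastic leukemia (B-ALL) that express GFP and BCR-ABL, so that no spleen of an uninjected mouse serves as a baseline. How many of these cells each sequenced spleen held was not measured here. The FMD + VC group received cycles of a fasting-mimicking diet (FMD) and vincristine (VC), a drug that binds tubulin and blocks cell division. The AL + VC group ate regular chow ad libitum (AL) and received vincristine, the FMD group received the diet and vehicle, and the AL group received chow and vehicle. The paper reports the lowest GFP expression by qPCR in FMD + VC mice. It cautions that its spleen expression levels might be confounded by more leukemia cells in AL and FMD spleens than after vincristine. It treats FMD + VC and AL + VC as comparable with each other.

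BCR-ABL is a tyrosine kinase that is active without a growth factor, because the BCR part lets the ABL kinases of paired molecules switch each other on. The kinase phosphorylates STAT5, which then moves to the nucleus and binds DNA at the sequence TTCNNNGAA. Among the genes it switches on are Cish and Socs2, whose products damp cytokine signaling, Pim1 and Pim2, kinases of survival and growth, Myc, a transcription factor of growth, and Osm, a secreted cytokine. In normal blood formation the same STAT5 lies downstream of the receptors for interleukin-2, interleukin-7 and erythropoietin, in lymphocytes, B cell precursors and red cell precursors. Activation of STAT5 is a matter of phosphorylation, which RNA levels do not measure.

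The STAT5 motif is shown for Cish, the gene with the largest difference of the 10, as the single member whose promoter window holds it. RefSeq promoter windows, which run from 250 bases before to 50 bases after a start site on GRCm38.p6, were found for 7 of the 10 genes, as 11 windows. The Cish sequence is chr9:107296409-107296678 on the plus strand, which holds the 250 bases before the RefSeq start site at 107296659 and the first bases transcribed from that site. Capitals mark the matches to TTCNNNGAA, a motif that reads the same on both strands.
Cish: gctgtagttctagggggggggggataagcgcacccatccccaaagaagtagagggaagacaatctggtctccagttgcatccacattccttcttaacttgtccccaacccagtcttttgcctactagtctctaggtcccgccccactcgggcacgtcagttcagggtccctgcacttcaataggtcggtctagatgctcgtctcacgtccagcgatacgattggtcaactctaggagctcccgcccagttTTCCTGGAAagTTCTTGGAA
Both matches lie at this RefSeq start site, TTCCTGGAA at 107296659 to 107296667 and TTCTTGGAA at 107296670 to 107296678. In GENCODE the gene begins farther upstream, at 107296026. Of all 32851 promoter windows, 8.3% hold at least 1 match and 0.457% hold 2 or more. Among the members 1 window of 11 (9.09%) holds a match, a share close to that of all windows. The windows of Bcr, Abl1, Stat5a, Stat5b, Pim1 and Pim2 do not hold these letters, and Socs2, Myc and Osm are named without a window. STAT5 sites outside these short windows were not searched for.

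The values are regularized log2 values (rlog), which the authors made from read counts with DESeq2. A difference of 1 between groups is a factor of 2, and the differences of genes with few reads are understated. The read depth is unknown here. Groups were compared with limma in 1 model of the 24 mice. A gene was called where the Benjamini-Hochberg adjusted p over all 16557 genes was under 0.05. Per mouse, the median of the tested genes was 7.73 to 7.86. A spleen holds a mixture of cells, and fewer cells of a type cannot be told apart from less RNA per cell. Xist, the RNA that silences an X chromosome in female cells, was at 10.45 to 15.68 in these mice, all labelled male, and the Y-linked gene Ddx3y at 8.93 to 10.77. The sources used here do not give the sex of the injected leukemia cells, and the source of Xist was not tested. The leukemia is of the pre-B cell type, and Vpreb1 and Igll1, which encode the surrogate light chain of that stage, lay between 2.76 and 7.24, while Rag2 was under the minimum of the test. Other tested pre-B cell markers had AL means between 4.64 (Dntt) and 10.95 (Myb). Markers of mature B cells, T cells, macrophages and red cell precursors, the cells of a mouse spleen, were present in every group.

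Cish, Socs2 and Pim1 were the targets with the largest differences, and Bcr and Abl1 fell with them when FMD + VC spleens were compared with AL spleens. In this comparison 7 of the 10 genes fell (Bcr, Abl1, Socs2, Cish, Pim1, Pim2 and Osm) and none rose, beside 20% of all genes tested that fell and 39.5% that changed in either direction. The median log2 difference was -0.79 over the 10 genes and -0.03 over all genes tested. Stat5a and Stat5b did not pass, nor did Myc.

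**Figure D1:**
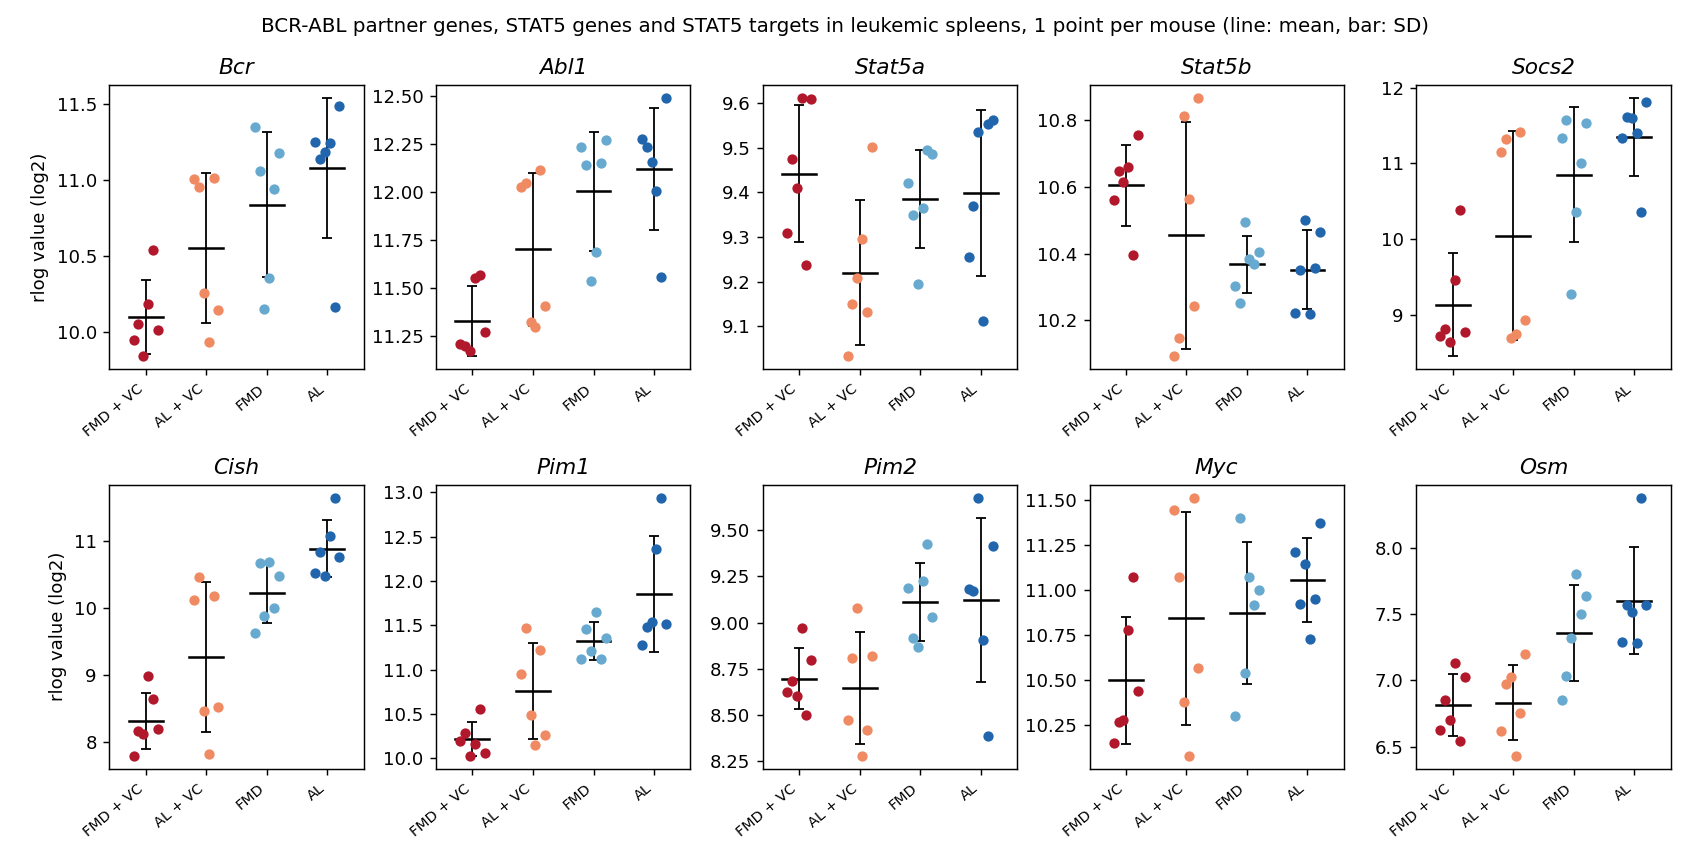
The rlog value (log2 scale, vertical axis, each panel with its own range that does not start at 0) of the 10 genes in every mouse, by group along the horizontal axis, with the mean (line) and SD (bar) of 6 mice. Cish lies between 7.79 and 8.98 in the FMD + VC mice, all below the AL mice at 10.47 to 11.64, while the AL + VC mice fall into a high and a low trio for Bcr, Abl1, Socs2 and Cish.

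Bcr and Abl1 are the partner genes of the fusion, Bcr with kinase and GTPase-regulating parts and Abl1 with a tyrosine kinase. Bcr (GRCm38 chromosome 10, 75060592 to 75184921, plus strand) had a lowest, median and highest rlog of 9.84, 10.03 and 10.54 in FMD + VC mice, against 10.17, 11.21 and 11.48 in AL mice. Those ranges overlap only through AL mouse 32 at 10.17, since the other AL mice lay at 11.14 or above. The mean was 10.10 ± 0.24 in FMD + VC and 11.08 ± 0.46 in AL (SD, n = 6 each), a log2 difference of -0.98 (standard error 0.23, adjusted p = 0.00241, limma). For Abl1 (chromosome 2, 31688376 to 31804227, plus strand) the lowest, median and highest values were 11.17, 11.24 and 11.57 in FMD + VC mice, against 11.56, 12.19 and 12.49 in AL mice. Here too AL mouse 32, at 11.56, was the lowest of its group and lay inside the FMD + VC range. The log2 difference was -0.79 (standard error 0.17, adjusted p = 0.00126, limma). Without AL mouse 32 the differences were -1.16 for Bcr and -0.90 for Abl1. Reads of the mouse genes cannot be told apart here from any reads of the BCR-ABL transcript of the leukemia cells, since the sources used here do not name the species of the fusion sequence. Abl1 also shares 94 exonic bases with the antisense gene Gm13427, and those sources do not say whether the counting used strand.

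The genes of STAT5 itself showed little difference. Stat5a (chromosome 11, 100859351 to 100885169, plus strand) and Stat5b (chromosome 11, 100780731 to 100850724, minus strand) are neighbors that encode closely related proteins, and how short reads shared between them were assigned is uncertain. Stat5a lay between 9.24 and 9.61 with a median of 9.44 in FMD + VC mice, and between 9.11 and 9.56 with a median of 9.45 in AL mice. The groups overlap almost fully, and the log2 difference of 0.04 (95% confidence interval -0.15 to 0.24, adjusted p = 0.728, limma) has an interval far from the differences of Cish and Socs2. Stat5b had a lowest, median and highest value of 10.39, 10.63 and 10.75 in FMD + VC mice, against 10.22, 10.35 and 10.50 in AL mice. Its log2 difference of 0.25 did not pass (95% confidence interval 0.02 to 0.48, adjusted p = 0.0739, limma), and 5 of the 6 FMD + VC mice lay above all AL mice. Stat5b passed with quantile normalization, with library weights and when the 2 groups were fitted alone. Of all genes 39.1%, 62.9% and 40.7% passed in these fits. Stat5a shares 72 exonic bases with Stat3 on the opposite strand.

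Socs2 and Cish encode inhibitors of cytokine signaling of the SOCS family and are induced by STAT5 as a feedback. Cish (chromosome 9, 107296026 to 107302784, plus strand) had a lowest, median and highest rlog of 7.79, 8.18 and 8.98 in FMD + VC mice, against 10.47, 10.79 and 11.64 in AL mice. The groups lie well apart. The mean was 8.32 ± 0.42 in FMD + VC and 10.88 ± 0.43 in AL (SD, n = 6 each), a log2 difference of -2.57 (standard error 0.36, adjusted p = 8.25e-05, limma), or 5.92-fold lower. For Socs2 (chromosome 10, 95385362 to 95417180, minus strand) the values were 8.64, 8.80 and 10.39 in FMD + VC mice, against 10.35, 11.50 and 11.80 in AL mice. A single mouse of each group, FMD + VC mouse 45 at 10.39 and AL mouse 32 at 10.35, makes the ranges overlap. Its log2 difference was -2.21 (standard error 0.49, adjusted p = 0.00157, limma), or 4.64-fold lower. Cish shares 479 exonic bases with the antisense gene Gm17041 and 261 with the pseudogene Gm17040, and under the strict overlap setting of the counting, reads in these bases would be dropped where strand was not used.

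Pim1 and Pim2 encode serine/threonine kinases that promote survival and protein synthesis in blood cells. Pim1 (chromosome 17, 29490753 to 29496112, plus strand) lay between 10.03 and 10.56 with a median of 10.18 in FMD + VC mice, and between 11.28 and 12.94 with a median of 11.53 in AL mice. The lowest AL mouse stood above the highest FMD + VC mouse, and AL mice 25 and 32, at 12.36 and 12.94, stood above all other mice of the study. The log2 difference was -1.64 (standard error 0.24, adjusted p = 0.000105, limma). Pim1 shares 488 exonic bases with the antisense gene Gm26885. Pim2 (chromosome X, 7878262 to 7883432, plus strand) differed less, at 8.50, 8.66 and 8.97 (lowest, median and highest) in FMD + VC mice, against 8.39, 9.18 and 9.68 in AL mice. Its log2 difference of -0.43 passed narrowly (standard error 0.17, adjusted p = 0.0450, limma). The call did not hold in 9 of the 12 fits that left out 1 mouse (adjusted p from 0.00428 to 0.125, limma).

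Myc, which drives growth and division, missed the threshold. Myc (chromosome 15, 61985391 to 61990374, plus strand) had a lowest, median and highest value of 10.15, 10.36 and 11.07 in FMD + VC mice, against 10.73, 11.05 and 11.38 in AL mice. The groups overlap through FMD + VC mice 42 and 45, and the log2 difference was -0.56 (95% confidence interval -1.02 to -0.10, adjusted p = 0.0506, limma). Leaving out either of those mice, or AL mouse 25, brought it past the threshold (lowest adjusted p = 0.0218 over the 12 fits). Osm (chromosome 11, 4236420 to 4241026, plus strand), a cytokine of the interleukin-6 family made by myeloid cells and T cells, had the lowest rlog of the 10 genes. It lay between 6.54 and 7.14 with a median of 6.77 in FMD + VC mice, and between 7.28 and 8.38 with a median of 7.54 in AL mice. These ranges do not overlap, and the log2 difference was -0.79 (standard error 0.18, adjusted p = 0.00211, limma). It was -0.63 without AL mouse 32, in which Osm was at 8.38. Cish, Pim1 and Osm were thus the 3 members whose groups do not overlap, with FMD + VC lower, beside 9.62% of all genes tested.

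**Figure D2:**
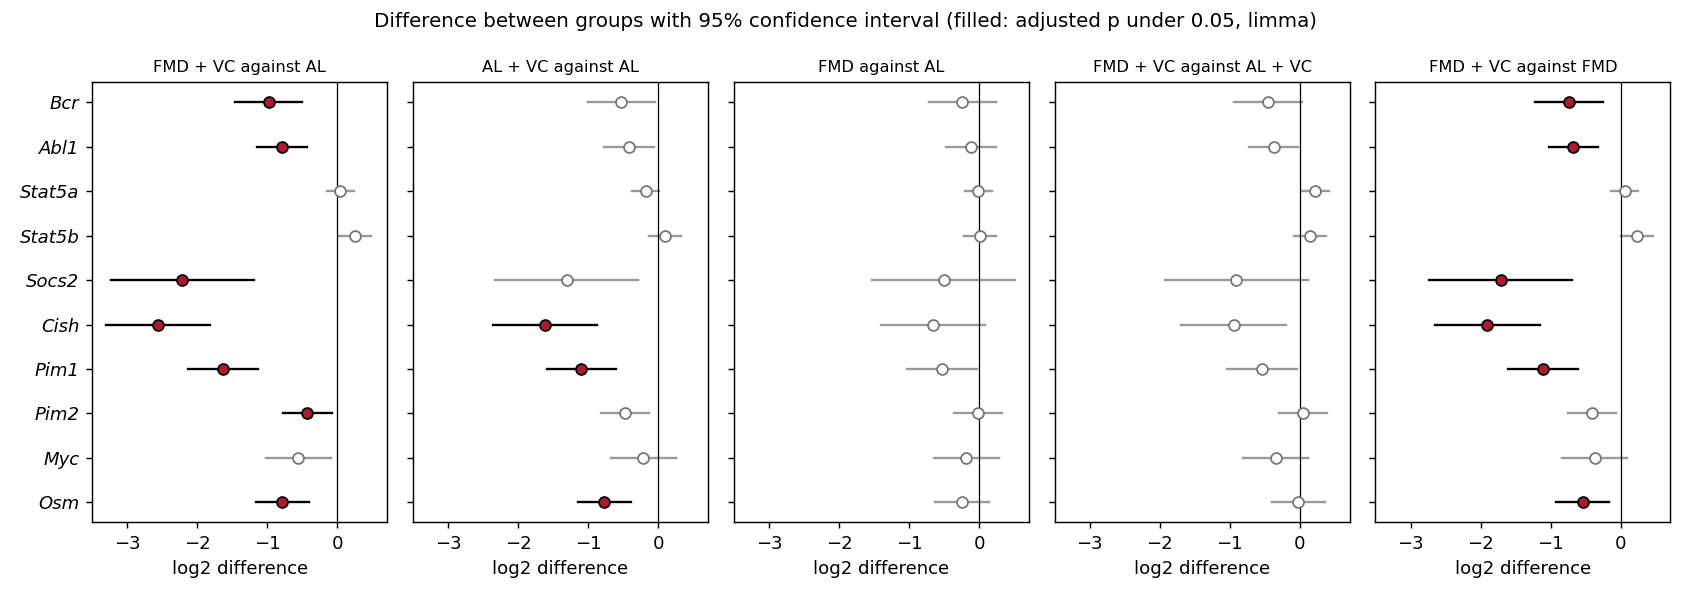
The log2 difference between groups (horizontal axis, first-named group minus the second) for the 10 genes (vertical axis) in 5 comparisons, with 95% confidence intervals as lines and filled points where the adjusted p was under 0.05. In FMD + VC against AL 7 genes are filled and lie below 0, with Cish farthest at -2.57, and in FMD against AL and in FMD + VC against AL + VC none is filled.

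The mean levels of the groups followed 1 order for 7 of the genes (Bcr, Abl1, Socs2, Cish, Pim1, Myc and Osm), with FMD + VC lowest, then AL + VC, FMD and AL. For Cish the means were 8.32, 9.26, 10.22 and 10.88 in FMD + VC, AL + VC, FMD and AL. Neighbors in this order, FMD + VC with AL + VC and FMD with AL, were not called apart for any of the genes in limma, and AL + VC was not tested against FMD. Stat5b had the opposite order, with means of 10.61, 10.46, 10.37 and 10.35 in FMD + VC, AL + VC, FMD and AL. Pim2 was at 8.70 and 8.65 in FMD + VC and AL + VC, and at 9.11 and 9.12 in FMD and AL.

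With vincristine alone, Cish, Pim1 and Osm fell. Compared with AL mice, 3 of the 10 genes fell in AL + VC mice and none rose, beside 2.53% of all genes tested that fell and 6.45% that changed in either direction. Cish was at 7.83, 8.46, 8.53, 10.11, 10.18 and 10.46 in the 6 AL + VC mice, against a lowest, median and highest value of 10.47, 10.79 and 11.64 in AL mice. Mice 17, 18 and 41 made up the low values and mice 13, 14 and 37 the high ones, the highest of which lay just under the AL range. The log2 difference was -1.62 (standard error 0.36, adjusted p = 0.0254, limma). Pim1 was at 10.15, 10.26, 10.49, 10.95, 11.22 and 11.47 in AL + VC mice, against 11.28, 11.53 and 12.94 (lowest, median and highest) in AL mice. The groups overlap through AL + VC mouse 14, and the log2 difference was -1.10 (standard error 0.24, adjusted p = 0.0254, limma). Osm, the third, lay between 6.43 and 7.20 in AL + VC mice, all below the AL mice at 7.28 or above, with a log2 difference of -0.77 (standard error 0.18, adjusted p = 0.0269, limma). Cish and Osm were the 2 members whose groups do not overlap, beside 0.58% of all genes tested that were lower without overlap.

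These 3 calls depend on single mice. None of the 10 genes passed without AL + VC mouse 17, 18 or 41 or without AL mouse 33, beside at most 0.217% of all genes in these fits. None passed in a fit of these 2 groups alone, beside 0% of all genes, while 5 passed without AL + VC mouse 14, beside 17.6%. The log2 difference of Cish stayed between -1.86 and -1.33 in these fits. With library weights, under which 1.56% of all genes passed, it was -1.0 for Cish and -0.55 for Pim1 and neither passed (adjusted p = 0.0775 and 0.104, limma), while Osm still passed and Pim2 did at -0.70 (adjusted p = 0.0167, limma). For Socs2 it was -1.30 (95% confidence interval -2.33 to -0.28, adjusted p = 0.0961, limma), for Bcr -0.52 and for Abl1 -0.42 (adjusted p = 0.144 and 0.119, limma), none of which passed.

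The AL + VC group held mice of a high and a low level for several of the genes. Socs2 was at 8.70, 8.75 and 8.94 in AL + VC mice 17, 18 and 41, inside the FMD + VC range of 8.64 to 10.39. In mice 13, 14 and 37 it was at 11.15, 11.33 and 11.42, inside the AL range of 10.35 to 11.80. Bcr had the same split, at 9.94, 10.15 and 10.26 in mice 18, 41 and 17 and at 10.95, 11.00 and 11.01 in mice 14, 13 and 37. Abl1 lay at 11.30 to 11.41 in the low trio and at 12.03 to 12.12 in the high trio. Stat5b was split the other way, at 10.56 to 10.87 in mice 17, 18 and 41 and at 10.09 to 10.24 in mice 13, 14 and 37. The SD of Socs2 was 1.38 in the AL + VC group, against 0.68 in FMD + VC, 0.89 in FMD and 0.52 in AL.

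**Figure D3:**
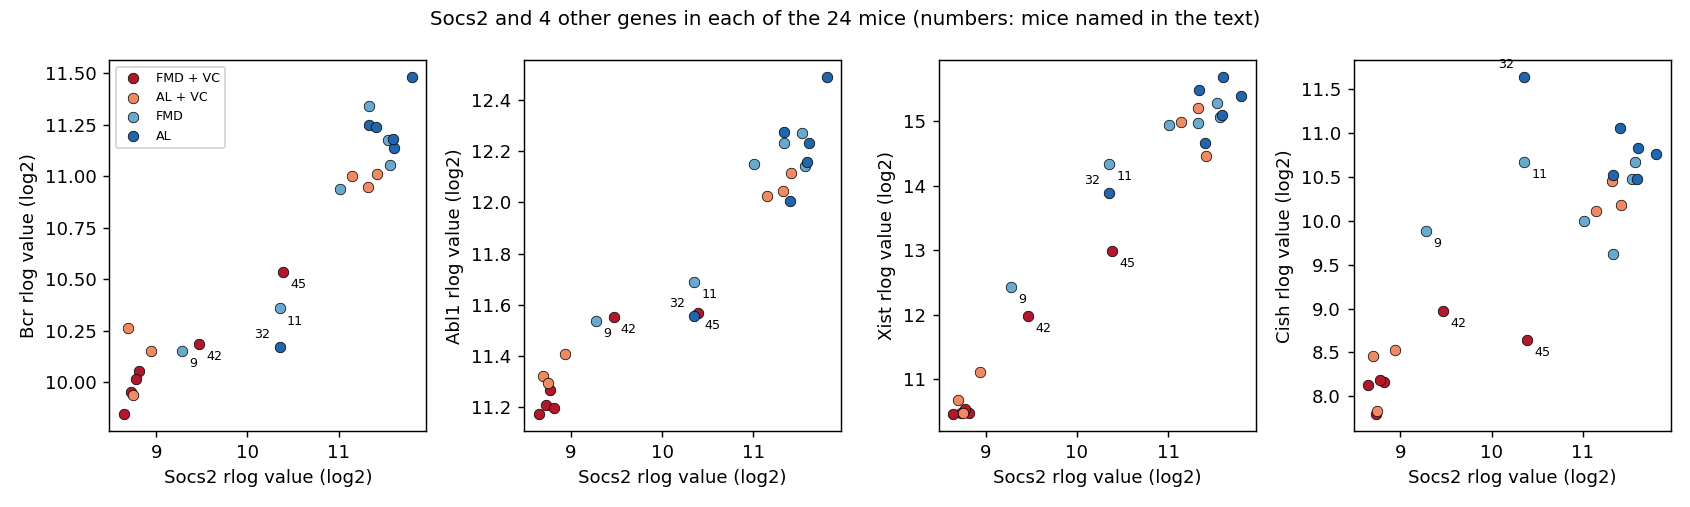
The rlog value of Socs2 (horizontal axis) against that of Bcr, Abl1, Xist and Cish (vertical axes, log2 scale), with 1 point per mouse colored by group and numbers for mice named in the text. Bcr, Abl1 and Xist rank the mice much as Socs2 does, whereas AL mouse 32 and FMD mouse 11 have high Cish at a Socs2 value of about 10.36.

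The same mice were low for Socs2, Bcr and Abl1. Ordered by Socs2, the 10 lowest of the 24 mice were FMD + VC mice 21, 29, 30, 42 and 46, AL + VC mice 17, 18 and 41, FMD mouse 9 and AL mouse 32. The 10 lowest mice of Bcr and the 10 lowest of Abl1 were these same 10 mice. For Socs2 the place at the end of this list is nearly a tie, since the tenth mouse was at 10.35 and the eleventh at 10.36. Of the 10 mice lowest in Xist 9 were among them, with Xist at 10.45 to 12.43 in these 9. Fewer were shared with Socs2 by the other targets, 8 of 10 for Cish, Pim1 and Myc, 6 for Pim2 and 5 for Osm, and 4 and 1 were shared by Stat5a and Stat5b. The sharing is a description, since the 24 mice differ in treatment and each library gives all genes at once. It was counted only for the members and Xist, so no share over all genes stands beside these counts. The part of Xist-bearing cells in these values was not tested.

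Genes with the most similar pattern over the 24 mice were sought for each member among 13681 named genes, by Pearson's r of the rlog values. The nearest to Socs2 were Igf2bp3, Cacnb2 and Plch1, each with r = 0.99. Bcr and Abl1 were in each other's first 3 with r = 0.97, beside Ptprs and Palm for Bcr (r = 0.98 and 0.97) and Large and Prkca for Abl1 (both r = 0.97). Cish was most like Bora, Bsn and Cercam (all r = 0.96), and Pim1 most like Wapal, Dbf4 and Sgol2a (r = 0.98, 0.96 and 0.96). Myc was most like Rrp1b, Ipo4 and Cdca7 (all r = 0.94), the first 2 of them known for ribosome assembly and nuclear import. The likeness was lower for Osm, among whose nearest were Cdan1 and Ppp1cc (r = 0.85 and 0.84), for Pim2, with Azin2, Il12rb1 and Lif (r = 0.82, 0.80 and 0.80), and for Stat5a, with Ahcyl2, Vps33a and Lss (r = 0.71, 0.70 and 0.68). Stat5b was most like Arl4c, Mark2 and Elk4 (r = 0.92, 0.92 and 0.91). The mice share the group differences. With the group means taken out, r was 0.99 for Socs2 with Igf2bp3 and 0.95 for Bcr with Abl1. It was lowest, at 0.63, for Stat5a with Lss. All these r are descriptions over 24 mice and carry no p.

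The diet alone gave no call. Between FMD and AL mice 0 of the 10 genes passed in limma, beside 0% of all genes tested. Pim1 alone had an unadjusted p under 0.05, 1 of the 10 genes beside 4.27% of all genes. Pim1 had a lowest, median and highest value of 11.12, 11.28 and 11.65 in FMD mice, against 11.28, 11.53 and 12.94 in AL mice. All 6 FMD mice and 4 of the 6 AL mice lay between 11.12 and 11.65, and AL mice 25 and 32 lay above. The log2 difference was -0.53 (95% confidence interval -1.03 to -0.03, unadjusted p = 0.0379 from limma, adjusted p = 0.934), and -0.31 without AL mouse 32. For Cish the values were 9.62, 10.24 and 10.68 in FMD mice, against 10.47, 10.79 and 11.64 in AL mice, a log2 difference of -0.66 (95% confidence interval -1.41 to 0.09). Socs2 was at 9.28 in FMD mouse 9 and at 10.36 in FMD mouse 11, and between 11.01 and 11.57 in the other FMD mice. Its log2 difference from AL of -0.50 has a wide interval (-1.52 to 0.52). The intervals of Stat5a, Stat5b and Pim2 lay within -0.36 and 0.33.

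Adding the diet to vincristine gave no call either. Between FMD + VC and AL + VC mice 0 of the 10 genes passed in limma, beside 0% of all genes, and 4 had an unadjusted p under 0.05 beside 11.3% of all genes. These were Cish at -0.95 (95% confidence interval -1.69 to -0.20), Pim1 at -0.54 (-1.04 to -0.04), Abl1 at -0.37 (-0.73 to -0.02) and Stat5a at 0.22 (0.03 to 0.42), each with an adjusted p of 0.427. The log2 difference of Socs2 was -0.91 (-1.93 to 0.11) and that of Bcr -0.45 (-0.93 to 0.03). For Osm it was -0.02 (-0.40 to 0.36) and for Pim2 0.05 (-0.29 to 0.39), both small beside the spread of the mice. With limma's weights for each library 8 of the 10 genes passed, among them Socs2 and Cish, beside 30% of all genes tested. Those weights were 0.270 to 0.443 for AL + VC mice 17, 18 and 41 and 0.694 to 1.26 for mice 13, 14 and 37. Within AL + VC the weighted fit thus leans on the trio with high Socs2. Within FMD + VC the largest weight, 7.29, was that of mouse 29, with Socs2 at 8.82. FMD + VC mice 42 and 45, with the highest Socs2 of their group (9.47 and 10.39), had weights of 0.763 and 0.553.

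With vincristine added to the diet 6 of the 10 genes fell. Against FMD mice, Bcr, Abl1, Socs2, Cish, Pim1 and Osm fell in FMD + VC mice and none rose, beside 10.9% of all genes that fell and 23.5% that changed in either direction. Cish had a lowest, median and highest value of 7.79, 8.18 and 8.98 in FMD + VC mice, against 9.62, 10.24 and 10.68 in FMD mice, with a log2 difference of -1.90 (standard error 0.36, adjusted p = 0.00251, limma). Pim1 was at 10.03, 10.18 and 10.56 in FMD + VC mice, against 11.12, 11.28 and 11.65 in FMD mice, with a log2 difference of -1.10 (standard error 0.24, adjusted p = 0.00426, limma). The groups do not overlap for these 2 genes, beside 5.16% of all genes that were lower without overlap. The log2 differences were -1.71 for Socs2, -0.74 for Bcr, -0.68 for Abl1 and -0.55 for Osm (adjusted p = 0.0163, 0.0249, 0.00840 and 0.0346, limma). The calls of Cish, Pim1, Socs2 and Abl1 held in all 12 fits without 1 mouse, while that of Bcr held in 7 and that of Osm in 5.

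The effect of vincristine with the diet was compared with that without the diet as an interaction, and 0 of the 10 genes passed in limma, beside 0% of all genes. None of the 10 had an unadjusted p under 0.05, beside 3.04% of all genes. The estimate was -0.28 for Cish (95% confidence interval -1.34 to 0.77) and -0.41 for Socs2 (-1.85 to 1.04), so that both intervals reach past a factor of 2 on the lower side and that of Socs2 on the higher side as well.

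Around the fusion and STAT5, genes of the signaling chain moved in both directions between FMD + VC and AL spleens, as did genes at large. Of all genes tested 19.5% rose and 20% fell in this comparison, and the counts of each list that follows stand beside these shares. Of 15 adaptors and effectors of BCR-ABL 3 rose and 5 fell, with a median log2 difference of 0.07. The scaffold genes Gab2 and Dok1 and the phosphatase gene Ptpn11 fell, with log2 differences of -0.72, -0.36 and -0.27, and the Src family kinase gene Lyn rose by 0.58 (adjusted p from 0.00109 to 0.00525, limma). Dok2, another scaffold gene, fell by 0.93. Among 5 relatives and partners of ABL and BCR, Abi1 rose (0.28) and Abi2 fell (-0.75), and Abl2 was at 0.17 (adjusted p = 0.0807, limma). The adaptor and relative lists held 1 call of AL + VC against AL, beside 6.45% of all genes called. That call was Gab2, which fell (log2 difference -0.53, adjusted p = 0.0434, limma).

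Upstream of STAT5, 5 of 16 genes of JAK kinases and cytokine receptors rose and 4 fell, with a median log2 difference of 0.05, beside 39.5% of all genes that changed in either direction. The kinase genes Jak1 and Tyk2 rose (log2 differences of 0.59 and 0.44), as did the receptor chains Il2rb and Il2rg (0.81 and 0.70), and Jak2 fell (-0.28). Il2ra, the alpha chain of the interleukin-2 receptor and itself known to be switched on by STAT5, had a lowest, median and highest rlog of 9.29, 9.53 and 10.56 in FMD + VC mice, against 10.39, 12.52 and 13.04 in AL mice. FMD + VC mouse 45 and AL mouse 25 make these ranges overlap, and the log2 difference was -2.44 (standard error 0.59, adjusted p = 0.00281, limma), close to those of Socs2 and Cish. In the AL + VC group Il2ra was at 9.11 to 9.59 in mice 17, 18 and 41 and at 11.32 to 12.54 in mice 13, 14 and 37, as in the split of Socs2. Epor, the erythropoietin receptor of red cell precursors, had a log2 difference of -1.81 (adjusted p = 0.0262, limma). Il7r, the receptor that B cell precursors depend on, was at -0.20 (adjusted p = 0.542, limma).

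Of 4 further STAT genes examined, 3 were higher in FMD + VC than in AL spleens. Stat3, Stat4 and Stat6 rose, with log2 differences of 0.40, 0.64 and 0.65 (adjusted p from 0.000625 to 0.0261, limma), and Stat2 was at 0.43 (adjusted p = 0.134, limma). The median of these 4 was 0.54, beside -0.03 over all genes tested. Against FMD mice the same 3 rose in FMD + VC mice, beside 23.5% of all genes that changed in either direction. Against AL none of the 4 passed in AL + VC mice, beside 6.45% of all genes.

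Of 12 further known STAT5 targets 2 rose, 3 fell and 7 did not pass between FMD + VC and AL, a share close to the 39.5% of all genes that passed, with a median log2 difference of -0.23. Those that fell were Bcl2l1, which encodes the survival protein BCL-XL, Socs1, another SOCS inhibitor, and Gfi1, a transcriptional repressor, with log2 differences of -1.15, -1.07 and -1.02 (adjusted p from 0.00432 to 0.0138, limma). Bcl6, a repressor of germinal center B cells that STAT5 is known to hold down, rose by 1.74 (standard error 0.25, adjusted p = 9.03e-05, limma). Bcl6 lay between 9.43 and 10.40 in FMD + VC mice and between 7.95 and 8.43 in AL mice, without overlap. Mcl1, a survival gene, rose by 0.66, and Bcl2 was at -0.43 (adjusted p = 0.149, limma). Socs3, a further SOCS gene, was at -0.00281 (adjusted p = 0.994, limma), and Pim3, the third PIM kinase gene, at 0.16 (adjusted p = 0.382). Of these 12 genes Bcl6 alone passed between AL + VC and AL mice, beside 6.45% of all genes. There it rose by 0.94 (adjusted p = 0.0346, limma).

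Inhibitors of JAK-STAT signaling other than Cish and Socs2 lay on both sides, with 4 of 11 rising and 3 falling, beside 19.5% of all genes that rose and 20% that fell. The phosphatase genes Ptpn6 and Ptprc rose (0.82 and 0.59), as did the adaptor gene Sh2b3 (0.47) and Socs5 (0.52). Socs1, Socs4 and Socs6 fell by 1.07, 0.25 and 0.33 on the log2 scale.

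Around MYC, 2 of 10 partners and antagonists rose and 2 fell, close to the shares of all genes (19.5% and 20%). Mycn, a close relative of Myc active in B cell precursors, was at 5.24, 5.42 and 6.38 (lowest, median and highest) in FMD + VC mice, against 6.78, 7.64 and 8.43 in AL mice. The groups do not overlap, and the log2 difference was -2.00 (standard error 0.39, adjusted p = 0.000635, limma), which passed where that of Myc did not. Mxd3 fell by 0.97 and Mlx and Mxd4 rose by 0.32 and 0.39. Of 14 MYC targets of growth 7 fell and none rose, beside 20% of all genes that fell, with a median log2 difference of -0.43. The nucleolar genes Gnl3 and Nop58 fell by 0.95 and 0.61, the pyrimidine synthesis gene Cad by 0.61 and the cell cycle kinase gene Cdk4 by 0.63 (adjusted p from 0.00495 to 0.0112, limma). Odc1, the polyamine enzyme often used as a readout of MYC, was at -0.83 (adjusted p = 0.0639, limma). None of the 14 passed between AL + VC and AL, beside 6.45% of all genes.

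For OSM, the shared receptor gene Il6st and the interleukin-6 receptor gene Il6ra rose in FMD + VC spleens (log2 differences of 0.63 and 0.91, adjusted p = 0.000404 and 0.00283, limma). Osmr, the specific receptor, was at 0.13 and Lifr at -0.09 (adjusted p = 0.548 and 0.803), and Lif, a related cytokine, fell by 0.60 (adjusted p = 0.0382). Il6 was under the minimum of the test.

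**Figure D4:**
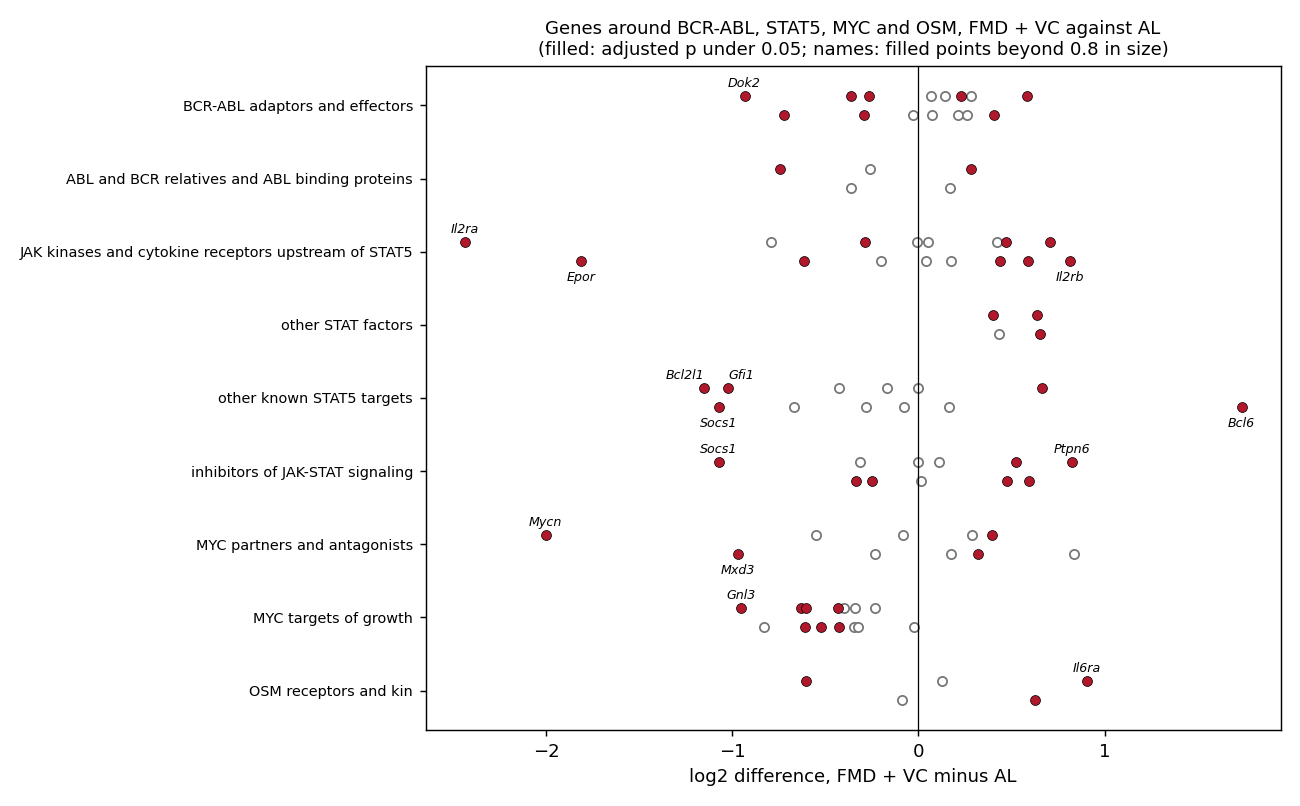
The log2 difference of FMD + VC minus AL (horizontal axis) for the tested genes of 9 lists around BCR-ABL, STAT5, MYC and OSM (vertical axis), 1 point per gene, filled where the adjusted p was under 0.05 and named beyond 0.8 in size. The 4 further STAT genes all lie above 0 and the 14 MYC targets of growth all lie below 0, while the other lists lie on both sides, from Il2ra at -2.44 to Bcl6 at 1.74.

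Markers of cell types that could carry these genes differed between the same groups. Of 14 red cell precursor genes 8 fell and none rose in FMD + VC against AL, with a median log2 difference of -2.19. Their mean rlog per mouse ran between 7.32 and 9.95 in FMD + VC mice, between 7.71 and 11.94 in AL + VC mice, between 7.62 and 11.71 in FMD mice and between 8.24 and 13.40 in AL mice. Mature B cell genes rose, 10 of 10, with a mean per mouse of 11.51 to 12.12 in FMD + VC mice and 9.36 to 10.35 in AL mice. Of 12 T cell genes 10 rose, with a mean per mouse of 9.44 to 10.36 in FMD + VC mice and 7.50 to 8.89 in AL mice. Pre-B cell genes were mixed (2 rose and 3 fell of 9 tested), at 6.30 to 8.04 in FMD + VC mice and 5.99 to 7.57 in AL mice. Myb, Erg and Sox4 fell, with log2 differences of -1.51, -1.53 and -1.18. Vpreb3 and Lef1 rose, with 1.56 and 1.77 (adjusted p from 0.00013 to 0.0153 for these genes, limma). Neutrophil genes (1 rose and 6 fell of 11) were at 4.84 to 7.35 and 6.05 to 7.82 in FMD + VC and AL mice. Megakaryocyte genes (3 fell of 7) lay at 7.00 to 8.51 and 8.24 to 8.86, and basophil and mast cell genes (3 fell of 4 tested) at 5.44 to 6.56 and 7.10 to 7.70. Of 11 macrophage genes none passed, with 9.16 to 10.73 and 9.49 to 10.85. With the red cell precursor mean as a covariate, the same 7 members passed between FMD + VC and AL, beside 31.9% of all genes. The part of any cell type in the members' differences, red cell precursors included, was not tested.

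AL mouse 32 stood apart from its group. It had the highest Cish, Pim1 and Osm of the 24 mice (11.64, 12.94 and 8.38), and the lowest Bcr, Abl1 and Socs2 of the AL group. Its red cell precursor mean of 13.40 was the highest of all mice and its pre-B cell mean of 5.99 the lowest. Without it 7 members still passed between FMD + VC and AL, beside 36.9% of all genes, and the log2 differences were -2.41 for Cish and for Socs2, -1.42 for Pim1 and -0.63 for Osm. Between AL + VC and AL, Osm no longer passed without it (log2 difference -0.61, adjusted p = 0.0507, limma), and Pim2 did (-0.62, adjusted p = 0.0406).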

How the data were processed

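Spleen RNA was depleted of ribosomal RNA, mapped by the authors to GRCm38 with HISAT2 2.1.0 and counted per gene with HTSeq 0.6.1. The annotation is named as Ensembl GRCh38 in the methods, while the gene names are mouse symbols. The sources used here do not give the strand setting. The deposited values are log2 values, the regularized logarithm that the authors made with DESeq2, and the depth per mouse is unknown. Each mouse was assigned to its group by its label, and 0 columns were left out.

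Genes at 0 in every mouse or whose mean rlog was below 3.32 (the log2 of 10) were left out. Groups were compared with limma 3.58.1 (R 4.3.3), with 1 coefficient per group, 20 residual degrees of freedom and eBayes with a trend, and tested on simulated data first. Other settings were no minimum, a minimum of 50, quantile normalization, library weights, the red cell precursor mean as a covariate, only the groups compared, and each mouse left out in turn. The members, the 9 pathway lists and the 8 cell type lists were chosen with earlier results of these data known. Named genes are the 10 members, up to 4 of each list by adjusted p or needed to say what did not pass, and the 3 genes most like each member, without predicted genes and receptor segments. Genes named beyond these were chosen after their values were seen. Gene coordinates are those of GENCODE M21 and promoters those of RefSeq. Ahsp and Epb42 were not analysed here, and a few genes are not reported here and were left out of the lists. Figures were drawn with matplotlib 3.10.9.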

Additional observations from a re-analysis of the deposited data

Results flagged for a closer look

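In each of the 40 sets of 6 values (10 genes in 4 groups) the most extreme mouse was compared with its nearest neighbor, and 3 gaps were above Dixon's limit at the 95% level. About 2 of 40 are expected by chance. All 3 come from AL mouse 32. Bcr was at 10.17 in this mouse, with the next AL mouse at 11.14, a gap of 0.739 of the range. Socs2 was at 10.35, with the next at 11.33 and a gap of 0.676 of the range. Osm was at 8.38, with the next at 7.57 and a gap of 0.739 of the range. The red cell precursor mean of this mouse was 13.40, the highest of the 24, and its part in these values was not tested.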

How the results depend on the processing

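No paired analysis was possible because the mouse numbers differ between the groups. The depth of the libraries is unknown, and Osm and other genes with few reads are drawn toward their mean. Between FMD + VC and AL + VC, 8 members passed with library weights in place of 0, beside 30% of all genes in place of 0%. Between AL + VC and AL, 0 passed in a fit of only these groups in place of 3, beside 0% of all genes. Without 1 mouse 0 to 5 passed there, beside 0.0362% to 17.6% of all genes. Without 1 mouse the count ran from 6 to 8 in FMD + VC against AL, beside 33.9% to 40.5% of all genes. In FMD + VC against FMD it ran from 4 to 6, beside 16.7% to 26.3% of all genes. Stat5b passed in FMD + VC against AL with quantile normalization, library weights or only the 2 groups, beside 39.1%, 62.9% and 40.7% of all genes. Myc passed there with library weights or only the 2 groups. Pim2 did not pass there with no minimum, quantile normalization or only the 2 groups (adjusted p = 0.0698, 0.108 and 0.0677, limma). With library weights Cish and Pim1 did not pass between AL + VC and AL. Between FMD + VC and FMD, Osm did not pass with no minimum, quantile normalization or the covariate. There Stat5b, Pim2 and Myc passed with library weights (9 members, beside 56.4% of all genes), Stat5b and Pim2 with only the 2 groups (8 members, beside 31.6%), and Pim2 with the covariate.

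The log2 differences that changed sign were all near 0 and had not passed. With quantile normalization these were Stat5a (0.031) and Pim2 (0.013) in FMD against AL and Osm (0.036) in FMD + VC against AL + VC. With library weights they were Stat5b (-0.015) in AL + VC against AL, Stat5a (0.066) in FMD against AL and Osm (0.040) in FMD + VC against AL + VC. With the red cell precursor covariate they were Stat5a (-0.016) in FMD + VC against AL, Stat5b (-0.00188) in FMD against AL, Pim2 (-0.018) and Osm (0.016) in FMD + VC against AL + VC, and Pim1 (0.067) in the interaction. Without 1 mouse the range was -0.013 to 0.085 for Stat5a in FMD + VC against AL. In FMD against AL it was -0.070 to 0.025 for Stat5a, -0.011 to 0.045 for Stat5b and -0.16 to 0.096 for Pim2. In FMD + VC against AL + VC it was -0.023 to 0.14 for Pim2 and -0.10 to 0.054 for Osm, and in the interaction -0.23 to 0.13 for Pim1 and -0.046 to 0.21 for Pim2. The cause of these changes was not tested.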
